A study of Mus musculus with 10 samples.

Results

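The transcription factor p53 (gene Trp53) and 9 genes known as its targets, Mdm2, Bax, Bbc3, Ccng1, Sesn2, Trp53inp1, Phlda3, Gdf15 and Zmat3, were followed in NSC/NPCs, the neural stem and progenitor cells, grown in culture from the subependymal zone of adult mice. The genes were picked by name, as rows of the table of counts whose Ensembl identifier maps to these symbols, and all 10 were found among 48795 listed genes. The table holds 10 RNA-seq libraries of cells from 10-week-old animals. There were 3 wild-type libraries of neurospheres collected at 3 DIV (days in vitro) under EGF (20 ng/ml) and FGF (10 ng/ml), called WT PRO, and 3 wild-type libraries of attached cells that had spent 2 days on Matrigel with FGF and then 24 h without mitogens in 2% fetal bovine serum, called WT DIFF or 2 + 1 DIV. The same stages were collected from cultures labelled p27KO, which are meant to lack Cdkn1b, the gene of the cyclin-dependent kinase inhibitor p27, with 2 libraries each (p27KO PRO and p27KO DIFF). The study took these cultures from mice with the mutation in the germline. The methods call the replicates biological, but neither they nor the labels say for these libraries whether each came from its own animal, and the p-values measure the spread between the libraries as given.

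p53 is a sequence-specific activator that is held low by its own target Mdm2, a ubiquitin ligase, and that accumulates when DNA damage, replication stress or nutrient stress releases it from Mdm2. Its regulation is largely post-translational, so the mRNA of Trp53 and the mRNAs of its targets are separate readouts. In neural progenitors p53 is known as a brake on self-renewal and as a trigger of cell death after damage, and its targets act on cell cycle arrest, on apoptosis, on metabolism and on the p53 loop itself. Many of these targets also have other activators.

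p53 binds a pair of short half-sites, and the sequences just upstream of some of these genes hold the letters of the motif. RefSeq lists promoters for 8 of the 10 genes (11 start sites, assembly GRCm38.p6), and the 250 bases before each start were searched on both strands for the p53 half-site by its consensus, and for the paired core, in which the CNNG cores of neighbouring half-sites, each with A or T in the middle, stand as far apart as in a full site. A half-site was present in 4 of the 8 genes (Trp53, Mdm2, Bax and Ccng1) and in 7.13% of all 32851 promoters of that length. The paired core was present in 2 (Trp53 and Bbc3) and in 5.84% of all promoters, and in Trp53 it overlapped the half-site. These units differ: a gene is counted if any of its starts matched, while the shares count each promoter singly. The matches are shown with their flanks, 5′ to 3′ on the strand of the gene and with the matched letters in capitals, because they lie in the genes whose values are given next. They describe the letters only and do not show binding.
Trp53, chr11:69580264-69580320, plus strand: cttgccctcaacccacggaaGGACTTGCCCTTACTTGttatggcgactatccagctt
Mdm2, chr10:117710915-117710964, minus strand: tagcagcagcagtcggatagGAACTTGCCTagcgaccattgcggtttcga
Ccng1, chr11:40755442-40755491, minus strand: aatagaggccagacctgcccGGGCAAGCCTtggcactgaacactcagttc
Bax, chr7:45467070-45467119, minus strand: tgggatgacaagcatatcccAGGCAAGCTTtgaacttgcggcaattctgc
Bbc3, chr7:16309469-16309522, plus strand: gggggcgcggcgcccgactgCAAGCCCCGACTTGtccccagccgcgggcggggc
The first capital stands 75 bases before the start in Trp53, 186 in Mdm2, 185 in Ccng1, 201 in Bax and 94 in Bbc3 (the first of its 3 listed starts). The Bbc3 window lies inside the annotated span of its gene, and the other windows lie outside the spans of theirs.

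Totals ranged from 19190068 to 25291674 estimated counts per library. Levels are given as CPM, counts scaled to the library total, and 12859 genes passed a filter that discards genes under 1 CPM in at least 4 of the 10 libraries. Of the 10 genes, 9 passed, and Gdf15 did not. All 9 markers fixed for NSC/NPCs were present, with a summed level of 7414 to 9120 CPM, whereas markers of microglia and blood summed to at most 0.622 CPM and those of endothelium to at most 1.62 CPM. The sums rose from PRO to DIFF for mural cells and fibroblasts (1.24 to 2.81 CPM against 29.7 to 98.7), ependyma (14.7 to 20.2 against 86.1 to 104), neurons (6.49 to 11.2 against 27.7 to 78.6) and oligodendrocytes (3.44 to 5.53 against 27.6 to 45.8). These sums rest on part of the markers. In both DIFF groups a mean of at least 1 CPM was reached by 2 of 5 mural and fibroblast markers, 2 of 4 for ependyma and 4 of 4 for neurons. Of 4 oligodendrocyte markers, 2 reached it in WT DIFF and 1 in p27KO DIFF. The part of these rising sums in any stage difference given next was not tested.

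The targeted gene was not lost in the libraries labelled p27KO. Cdkn1b stood at 107 ± 5.12 CPM in WT PRO (SD, n = 3) and at 102 ± 16.3 in p27KO PRO (SD, n = 2), and at 207 ± 1.68 CPM in WT DIFF (SD, n = 3) and 139 ± 2.17 in p27KO DIFF (SD, n = 2). It was lower in p27KO DIFF than in WT DIFF (log2 fold change -0.56, SE 0.09, edgeR adjusted p = 0.012), a call that was lost when either p27KO DIFF library was left out. Counts per gene do not show which part of a transcript was read, so a shortened transcript could still be counted, and the genotype is taken from the labels alone. One description field of all 4 libraries labelled p27KO also calls their cells WT. The genotypes differed in sex as well: Xist, named after its values were seen, was at 2258 to 3595 CPM in the libraries labelled p27KO and at 2.57 CPM or less in the WT libraries. Sex and genotype therefore cannot be told apart in any comparison between them.

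Per kilobase of exon, which allows levels of different genes to be compared, Ccng1 was the most abundant of the 10 genes in every group, at 118 CPM per kb in WT PRO, 67.5 in WT DIFF, 171 in p27KO PRO and 159 in p27KO DIFF. Bax (69.3 CPM per kb), Trp53inp1 (47.9) and Phlda3 (34.2) followed in WT PRO. Sesn2, Trp53, Zmat3 and Mdm2 lay close together there, at 17.3 to 23.9 CPM per kb. Bbc3, at 2.88 to 4.52 CPM per kb over the groups, and Gdf15, at 0.102 to 3.66, were the least abundant.

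**Figure D1:**
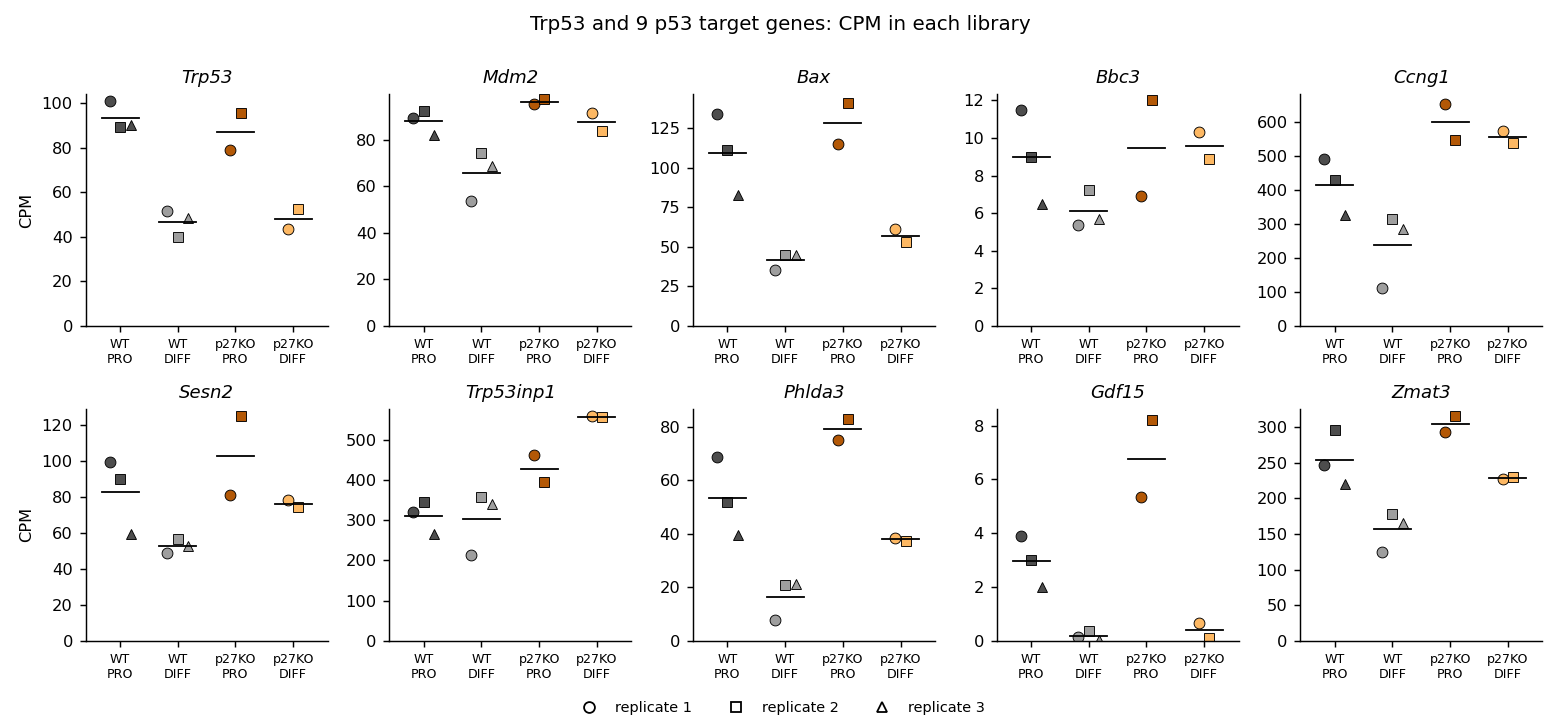
Level in CPM (y axis, from 0, a scale for each gene) of Trp53 and 9 p53 target genes in each of the 10 libraries, by group (x axis), with the group mean as a line and the replicate number as the shape of the point. Trp53 and Bax stand lower in DIFF than in PRO in both genotypes, while Ccng1 and Trp53inp1 stand higher in both libraries of p27KO DIFF than in any WT DIFF library.

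Trp53 (ENSMUSG00000059552, chr11:69580359-69591873 in GRCm38, plus strand) encodes p53 itself. It was at 101, 89.5 and 90.2 CPM in WT PRO replicates 1 to 3, at 51.8, 39.7 and 48.3 CPM in WT DIFF, at 78.9 and 95.5 CPM in p27KO PRO and at 43.3 and 52.4 CPM in p27KO DIFF. Every DIFF library was below every PRO library, and the genotypes overlapped at both stages. The mean halved to 0.498 of its PRO level in WT (log2 fold change -1.02, SE 0.12, edgeR adjusted p = 5.2e-05) and went to 0.549 of it in p27KO (-0.89, SE 0.15, adjusted p = 0.000695). In order of mean level, WT PRO (93.5 ± 6.29 CPM) and p27KO PRO (87.2 ± 11.7) overlapped in their libraries, as did p27KO DIFF (47.9 ± 6.4) and WT DIFF (46.6 ± 6.23). In bulk RNA, fewer cells with a transcript and less of it per cell cannot be told apart.

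Mdm2 and Ccng1 act back on p53. Mdm2 (ENSMUSG00000020184, chr10:117688875-117710758, minus strand) was at 89.3, 92.6 and 82.2 CPM in WT PRO, at 53.6, 74.6 and 68.6 in WT DIFF, at 95.3 and 97.5 in p27KO PRO and at 91.7 and 84 in p27KO DIFF. All WT DIFF libraries lay below all others. Mdm2 fell in WT (log2 fold change -0.43, SE 0.12, edgeR adjusted p = 0.0099), and in p27KO its change did not pass (-0.16, SE 0.15, adjusted p = 0.378). Ccng1 (ENSMUSG00000020326, chr11:40748552-40755311, minus strand) encodes cyclin G1, which recruits a phosphatase to Mdm2. Its levels were 490, 430 and 325 CPM in WT PRO, 112, 314 and 286 in WT DIFF, 655 and 546 in p27KO PRO, and 574 and 540 in p27KO DIFF. Both p27KO groups lay above both WT groups, and WT DIFF replicate 1 was far below its 2 fellow libraries. The stage change of Ccng1 passed neither in WT (-0.81, SE 0.34, edgeR adjusted p = 0.06) nor in p27KO (-0.13, SE 0.41, adjusted p = 0.8). In WT it passed without WT DIFF replicate 1 (-0.46, adjusted p = 0.0323), without WT DIFF replicate 2 (-1.09, adjusted p = 0.029) and with DESeq2 (-0.81, adjusted p = 0.0334).

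Bax, Bbc3, Phlda3 and Trp53inp1 act on cell death or survival. Bax (ENSMUSG00000003873, chr7:45461697-45466898, minus strand), the effector that permeabilises mitochondria, was at 134, 111 and 82.7 CPM in WT PRO, 35.3, 44.7 and 44.5 in WT DIFF, 115 and 141 in p27KO PRO, and 60.9 and 52.9 in p27KO DIFF. Every DIFF library lay below every PRO library, and both p27KO DIFF libraries lay above the 3 of WT DIFF. Bax fell in WT (log2 fold change -1.40, SE 0.18, edgeR adjusted p = 9.6e-05) and in p27KO (-1.20, SE 0.22, adjusted p = 0.00132). Its reads may include those of Gm45808, an annotated gene that overlaps it on the same strand. Bbc3 (ENSMUSG00000002083, chr7:16308393-16318205, plus strand) encodes Puma, which binds the anti-apoptotic members of the Bcl-2 family. It was at 11.5, 9.01 and 6.46 CPM in WT PRO, 5.39, 7.25 and 5.69 in WT DIFF, 6.9 and 12 in p27KO PRO, and 10.3 and 8.86 in p27KO DIFF. Its stages overlapped in both genotypes, and its stage change passed in neither (-0.56, SE 0.27, edgeR adjusted p = 0.0881 in WT, and -0.0024, SE 0.32, adjusted p = 0.995 in p27KO). In WT it passed with no filter (-0.64, edgeR adjusted p = 0.045) and without WT PRO replicate 3 (-0.75, adjusted p = 0.0337).

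Phlda3 (ENSMUSG00000041801, chr1:135766119-135769136, plus strand) competes with Akt for membrane lipids and so restrains a survival signal. Its levels were 68.7, 51.9 and 39.4 CPM in WT PRO, 7.74, 20.7 and 21 in WT DIFF, 75.1 and 82.8 in p27KO PRO, and 38.5 and 37.4 in p27KO DIFF. The groups were in the order p27KO PRO, WT PRO, p27KO DIFF and WT DIFF by mean, and no neighbouring groups overlapped. It had the largest stage change of the 9 genes tested in WT (log2 fold change -1.69, SE 0.35, edgeR adjusted p = 0.00218). In p27KO it was called at -1.08 (SE 0.41, adjusted p = 0.0483), and the call was fragile. It was lost when replicate number was blocked (-1.08, edgeR adjusted p = 0.0984), with DESeq2's size factors (adjusted p = 0.0529), with no filter (0.148) and in 6 of the 10 fits that left out a library, namely those without WT DIFF replicate 3, WT PRO replicate 2 or any p27KO library (0.0559 to 0.154). Trp53inp1 (ENSMUSG00000028211, chr4:11156431-11174379, plus strand), a stress protein that links p53 to autophagy and death, was at 320, 345 and 266 CPM in WT PRO, 213, 359 and 341 in WT DIFF, 463 and 395 in p27KO PRO, and 560 and 558 in p27KO DIFF. The WT groups overlapped, p27KO PRO lay above both, and p27KO DIFF lay above p27KO PRO. The change was -0.04 in WT (SE 0.18, edgeR adjusted p = 0.875) and 0.36 in p27KO (SE 0.23, adjusted p = 0.2).

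The remaining genes serve stress metabolism, RNA stability and secretion. Sesn2 (ENSMUSG00000028893, chr4:132492032-132510501, minus strand), a leucine sensor that restrains mTORC1, was at 99.4, 90.1 and 59.3 CPM in WT PRO, 49, 56.7 and 52.6 in WT DIFF, 80.8 and 125 in p27KO PRO, and 78.1 and 74.1 in p27KO DIFF. The stages did not overlap within either genotype, although WT PRO replicate 3 came within a few CPM of WT DIFF. Sesn2 fell in WT (log2 fold change -0.66, SE 0.21, edgeR adjusted p = 0.0193), a call lost without WT DIFF replicate 1, WT DIFF replicate 3, WT PRO replicate 1 or WT PRO replicate 2 (adjusted p = 0.0534 to 0.0715), and its value in p27KO was -0.46 (SE 0.26, adjusted p = 0.148). Gm12981 overlaps it on the same strand. Zmat3 (ENSMUSG00000027663, chr3:32334792-32366014, minus strand), a zinc finger protein that binds AU-rich RNA and affects splicing, was at 247, 296 and 220 CPM in WT PRO, 125, 178 and 166 in WT DIFF, 293 and 316 in p27KO PRO, and 227 and 230 in p27KO DIFF. Both DIFF groups lay below the PRO group of their genotype, and p27KO DIFF lay within the range of WT PRO. Zmat3 fell in WT (-0.71, SE 0.15, edgeR adjusted p = 0.00177). In p27KO it missed the threshold (-0.44, SE 0.18, adjusted p = 0.0586), and it passed when replicate number was blocked (-0.43, adjusted p = 0.0407), with DESeq2 (0.0454), with no filter (0.027), with the filter that keeps genes reaching 1 CPM in 4 libraries (0.0429), with only the groups compared (0.02) and without WT DIFF replicate 1 (0.0215) or 2 (0.0441).

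Gdf15 (ENSMUSG00000038508, chr8:70629393-70632456, minus strand), a secreted stress hormone, was nearly absent after mitogen withdrawal. It had 75, 75 and 43 counts in WT PRO (3.91, 2.99 and 1.98 CPM), 3, 9 and 1 in WT DIFF (0.153, 0.373 and 0.0395 CPM), 129 and 167 in p27KO PRO (5.33 and 8.21 CPM), and 17 and 2 in p27KO DIFF (0.674 and 0.0899 CPM). All DIFF libraries were below all PRO libraries, both p27KO PRO libraries were above the 3 of WT PRO, and the DIFF groups overlapped. Because at least 4 libraries were under 1 CPM it was not tested with the others. When genes reaching 1 CPM in 4 or more libraries were kept instead, it fell in WT (log2 fold change -3.98, SE 0.70, edgeR adjusted p = 0.000694) and in p27KO (-4.15, SE 0.78, adjusted p = 0.00147). Those fitted sizes rest on few counts in DIFF.

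Of the 9 genes tested, 6 fell from PRO to DIFF in WT (Trp53, Mdm2, Bax, Sesn2, Phlda3 and Zmat3) and 0 rose, where 33.9% of all genes tested fell and 33.5% rose. In p27KO 3 fell (Trp53, Bax and Phlda3) and 0 rose, where 30.2% of all genes fell and 27.5% rose. The median log2 fold change of the 9 was -0.71 in WT and -0.44 in p27KO, against -0.0019 and -0.03 over all genes tested. Among all 10 genes, the DIFF libraries lay wholly below the PRO libraries for 8 in WT, where 35.6% of all genes tested did so, and wholly above for 0, where 36.3% did so. They lay below for 7 in p27KO, where 39.8% did so. In p27KO the DIFF libraries lay wholly above for 1 (Trp53inp1), where 40% of all genes did so. With a minimum log2 fold change of 1, 3 of the 6 falls in WT kept their call.

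**Figure D2:**
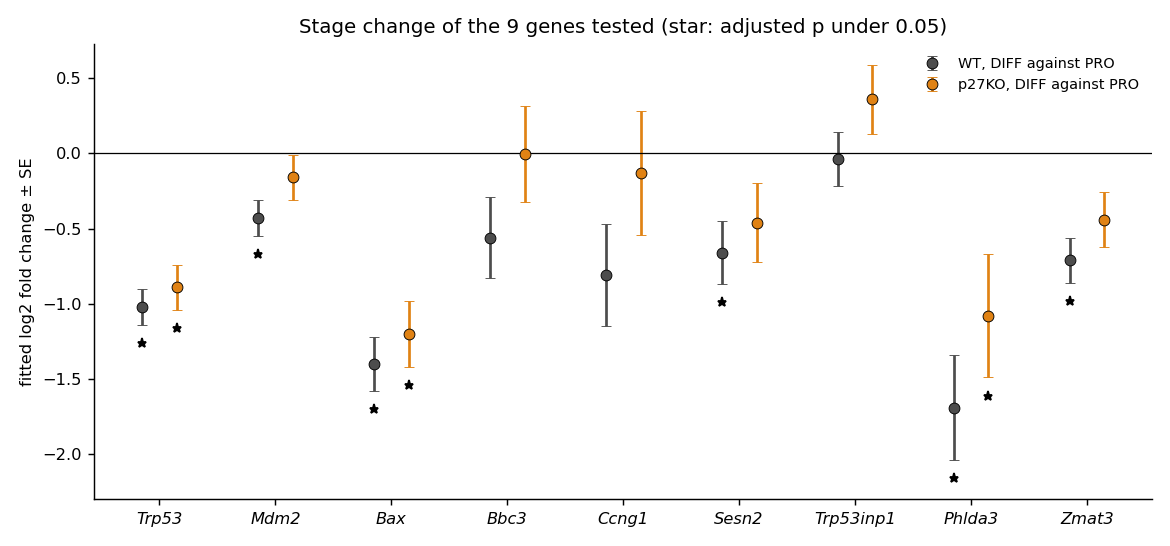
Fitted log2 fold change from PRO to DIFF (y axis) with its standard error (bars) for each of the 9 genes tested (x axis), in WT (grey) and in p27KO (orange), with a star below values whose adjusted p is under 0.05. All 9 WT values are below 0, 6 of them called, and every p27KO value lies above its WT value, with no difference between the genotypes called.

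The difference between the stage changes of the genotypes was tested directly, as an interaction. All 9 fitted differences were positive, between 0.12 (Trp53) and 0.68 (Ccng1, SE 0.53), with a median of 0.27 against -0.01 over all genes tested. None passed with edgeR (adjusted p = 1 for each), where 0.389% of all genes were called, and 0 of 9 had an unadjusted p under 0.05, where 4.31% of all genes did. DESeq2 called 0 as well, where it called 1.25% of all genes. Thus the loss of Mdm2, Sesn2 and Zmat3 from the list of falling genes in p27KO, which has fewer libraries, is not a shown difference between genotypes. For the genes with the widest gaps the standard errors were large, at 0.53 for Ccng1 and Phlda3 (0.61).

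In neurospheres, the libraries labelled p27KO did not differ from WT by the test for any of the 9 genes (edgeR adjusted p = 1 for each, and 0 called by DESeq2). Of all genes, edgeR called 0.0156% and DESeq2 0.311%. The fitted values were positive for 8 of 9, with a median of 0.29 against -0.0039 over all genes. Phlda3 (0.60, SE 0.37), Ccng1 (0.56, SE 0.37) and Trp53inp1 (0.49, SE 0.20) were largest. Of the 9 genes Trp53inp1 alone was under 0.05 before adjustment (0.0378 with edgeR), where 4.69% of all genes were. Trp53 itself was at -0.07 (SE 0.14). Among all 10 genes, both p27KO PRO libraries lay above all WT PRO libraries for 5 (Mdm2, Ccng1, Trp53inp1, Phlda3 and Gdf15), where 6.94% of all genes tested did so, and 0 lay below, where 10.9% did so.

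At 2 + 1 DIV no member passed the test between the libraries labelled p27KO and WT, although most targets, unlike Trp53 and Gdf15, did not overlap between the groups. Among all 10 genes, both p27KO DIFF libraries lay above all 3 WT DIFF libraries for 8, all but Trp53 and Gdf15, where 17% of all genes tested did so, and 0 lay wholly below, where 20.4% did so. Mean levels were 2.35 times those of WT for Ccng1, 2.3 times for Phlda3, 1.84 for Trp53inp1, 1.57 for Bbc3, 1.46 for Zmat3, 1.44 for Sesn2, 1.37 for Bax and 1.34 for Mdm2. Trp53 was at 1.03 times. The median fitted log2 difference of the 9 genes was 0.56, against -0.01 over all genes, and 8 of 9 had an unadjusted edgeR p under 0.05, where 14.8% of all genes did. After adjustment 0 of 9 passed with edgeR, where 1.91% of all genes were called higher and 0.124% lower.

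The closest to the threshold was Trp53inp1, at 0.89 (SE 0.20, edgeR adjusted p = 0.0666), followed by Zmat3 at 0.56 (SE 0.16, adjusted p = 0.142), Ccng1 at 1.24 (SE 0.37, adjusted p = 0.165), Mdm2 at 0.43 (SE 0.13, adjusted p = 0.168) and Phlda3 at 1.21 (SE 0.37, adjusted p = 0.179). Trp53 was at 0.05 (SE 0.14, adjusted p = 0.883). DESeq2 called 4 of the 9 higher in p27KO DIFF, namely Trp53inp1 (0.90, DESeq2 adjusted p = 0.000736), Phlda3 (1.23, adjusted p = 0.016), Zmat3 (0.57, adjusted p = 0.023) and Ccng1 (1.26, adjusted p = 0.0325), where it called 4.12% of all genes higher. Whether any member is called therefore depends on the tool.

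**Figure D3:**
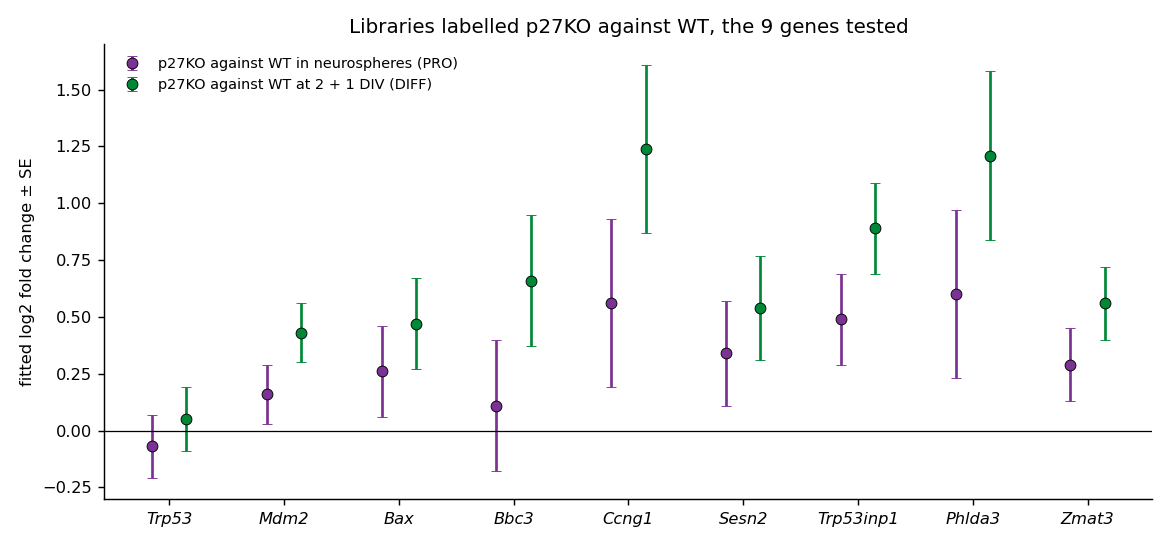
Fitted log2 difference between the libraries labelled p27KO and WT (y axis) with its standard error (bars) for each of the 9 genes tested (x axis), in neurospheres (purple) and at 2 + 1 DIV (green). At 2 + 1 DIV the values run from 0.05 for Trp53 to 1.24 for Ccng1, and no value at either stage has an edgeR adjusted p under 0.05.

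A single WT library had a large part in this comparison. WT DIFF replicate 1 was the lowest of the 3 WT DIFF libraries for 8 of the 10 genes, all but Trp53 and Gdf15, where it was the lowest for 34.5% of all genes tested. Within the WT pairs of the same replicate number, the log2 ratio of DIFF to PRO was -2.13, -0.45 and -0.18 for Ccng1, -3.15, -1.33 and -0.91 for Phlda3, and -0.59, 0.06 and 0.36 for Trp53inp1, so that pair 1 fell most for each. For Trp53 the pairs were alike, at -0.96, -1.17 and -0.90. Without this library, the difference at 2 + 1 DIV shrank to 0.90 for Ccng1, 0.87 for Phlda3, 0.68 for Trp53inp1 and 0.42 for Zmat3, and at the same time the spread among WT libraries shrank, so that Ccng1 (edgeR adjusted p = 0.0392) and Trp53inp1 (adjusted p = 0.0297) passed, where 1.77% of all genes were called higher. Without WT DIFF replicate 2, Trp53inp1 alone passed (1.04, edgeR adjusted p = 0.0429), where 1.78% were called higher.

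A proliferation marker also differed between these cultures. Mki67, expressed in cycling cells, was at 97.4 ± 26.4 CPM in WT DIFF (SD, n = 3) and at 337 ± 33.4 in p27KO DIFF (SD, n = 2), a log2 difference of 1.81 (SE 0.19, edgeR adjusted p = 0.00112, and 0.0571 with only the groups compared), and at 842 ± 55.4 and 922 ± 45.9 CPM in the PRO groups. WT DIFF replicate 1, the lowest for most of the p53 targets, had the highest Mki67 of its group, at 118 CPM against 67.6 and 107. The part of cycling cells in the p53 target values was not tested.

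A longer list of 48 further p53 targets showed both directions. Of these, 47 were in the table and 40 passed the filter. In WT, 22 fell and 9 rose from PRO to DIFF, with a median log2 fold change of -0.60, and in p27KO 16 fell and 10 rose, with a median of -0.36, beside the same shares and medians of all genes given for the first set. The largest falls in WT were those of Trp53i11 (-3.26, SE 0.23, edgeR adjusted p = 2.1e-06), of Zfp365, which protects stalled replication forks (-2.60, SE 0.12, adjusted p = 1.3e-07), and of Pvt1, a long noncoding RNA (-2.55, SE 0.19, adjusted p = 1.9e-06). Of the targets with a mean of at least 10 CPM over the libraries, Sesn1, a sestrin like Sesn2, rose most (1.38, SE 0.09, edgeR adjusted p = 1.0e-06). Ier5, an immediate early gene (1.14, SE 0.17, adjusted p = 0.00025), and Rrm2b, the p53-inducible subunit of ribonucleotide reductase (0.94, SE 0.11, adjusted p = 4.3e-05), followed. Ddb2, with a mean below 10 CPM, rose by 1.46 (SE 0.12, adjusted p = 4.9e-06). Sesn1 went from 23.6 to 27.7 CPM in WT PRO to 62.8 to 72.2 in WT DIFF, and so moved opposite to Sesn2 in these libraries.

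Cdkn1a, the p53 target that encodes the cell cycle inhibitor p21, was at 305, 284 and 181 CPM in WT PRO, 19.9, 75.1 and 61.3 in WT DIFF, 346 and 443 in p27KO PRO, and 159 and 123 in p27KO DIFF. No groups overlapped, and WT DIFF replicate 1 was again the lowest. It fell in WT (log2 fold change -2.30, SE 0.44, edgeR adjusted p = 0.00172) and in p27KO (-1.51, SE 0.53, adjusted p = 0.0363). Its difference at 2 + 1 DIV was 1.44 (SE 0.47, adjusted p = 0.202).

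At 2 + 1 DIV, 6 of the 40 were higher in the libraries labelled p27KO and 0 were lower with edgeR (12 and 0 with DESeq2), where edgeR called 1.91% of all genes higher and DESeq2 4.12%. The median was 0.42, and 22 of the 40 lay wholly above WT DIFF and 6 wholly below, where 17% and 20.4% of all genes did so. The 6 were Ckap2, a protein of the mitotic spindle (1.71, SE 0.13, edgeR adjusted p = 0.00033), Slc19a2, a thiamine transporter (1.53, SE 0.25, adjusted p = 0.0116), Polk, a translesion DNA polymerase (0.73, SE 0.13, adjusted p = 0.019), Ercc5, a nuclease of excision repair (0.79, SE 0.14, adjusted p = 0.0207), Zfp365 (0.65, SE 0.13, adjusted p = 0.0322) and Pmaip1, which encodes the death protein Noxa (1.80, SE 0.35, adjusted p = 0.0332). Pmaip1 was at 3.16, 8.04 and 7.16 CPM in WT DIFF against 19.7 and 23.1 in p27KO DIFF. Blocking on replicate number ended its call (1.83, edgeR adjusted p = 0.0821). That block gives same-numbered libraries a shared term across the genotypes, a link that no label states. Leaving out either p27KO DIFF library ended each of these 6 calls but that of Ckap2. With only the groups compared, each but that of Ckap2 was lost as well (edgeR adjusted p = 0.117 to 0.145). Zfp365 kept its call in 3 of the 10 fits that left out a library, and Pmaip1 in 4. Ercc5 was at 51.9, 67 and 73.7 CPM in WT DIFF and at 113 and 107 in p27KO DIFF, and Slc19a2 was at 8.04, 15.7 and 16.1 CPM against 38.4 and 38.1. In neurospheres 0 of the 40 passed with edgeR or DESeq2, which called 0.0156% and 0.311% of all genes. Before adjustment 7 were under 0.05 with edgeR, where 4.69% of all genes were. The median was 0.18 and 32 values were positive, against a median of -0.0039 and 48.8% positive over all genes. Of the 40, 15 lay wholly above WT PRO and 3 wholly below, where 6.94% and 10.9% of all genes did so. WT DIFF replicate 1 was the lowest WT DIFF library for 27 of the 40.

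**Figure D4:**
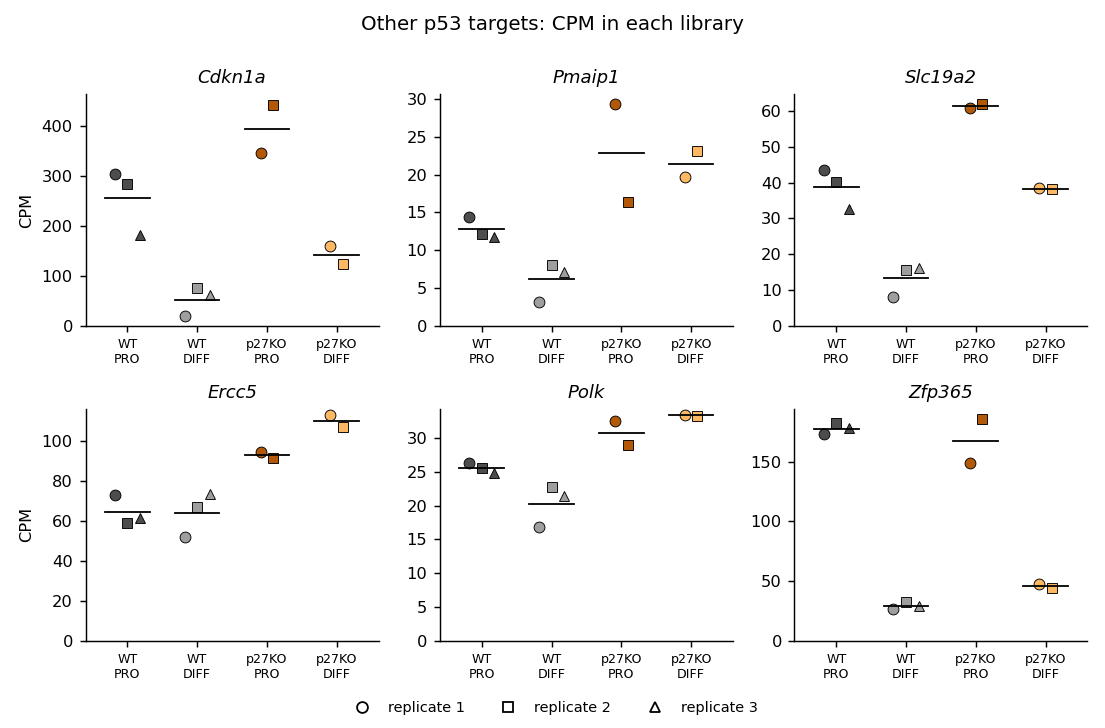
Level in CPM (y axis, from 0, a scale for each gene) of 6 other p53 targets in each library by group (x axis), with the group mean as a line and the replicate number as the shape of the point. Both p27KO DIFF libraries lie above all WT DIFF libraries in each panel, for instance at 159 and 123 CPM against 19.9 to 75.1 for Cdkn1a, whose difference did not pass the test. All but Cdkn1a are drawn because they were called higher in this comparison, so their separation adds no support. Of the 40 targets tested, 22 lay wholly above WT DIFF and 6 wholly below.

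The genes that act on p53 went in both directions. Of 25 regulators and relatives of p53, 23 passed the filter, and in WT 7 rose and 7 fell, with a median of -0.0013, while in p27KO 6 rose and 5 fell. These counts are near or below the shares over all genes, 33.5% and 33.9% in WT and 27.5% and 30.2% in p27KO. The largest falls in WT were those of Chek1 (-3.41, SE 0.19, edgeR adjusted p = 3.2e-07) and Chek2 (-2.21, SE 0.10, adjusted p = 1.5e-07), the checkpoint kinases that phosphorylate p53, and of Usp10, a deubiquitinase of p53 (-1.26, SE 0.10, adjusted p = 3.7e-06). Of the regulators with a mean of at least 10 CPM over the libraries, Trp53bp2, a cofactor of p53 in apoptosis, rose most (0.87, SE 0.09, edgeR adjusted p = 1.4e-05). Prkdc, the catalytic subunit of DNA-PK (0.85, SE 0.10, adjusted p = 5.7e-05), and Dyrk2, a p53 kinase (0.57, SE 0.12, adjusted p = 0.00215), followed. Ppp1r13b, with a mean below 10 CPM, rose by 0.64 (SE 0.16, edgeR adjusted p = 0.00506). The p53 relatives Trp63 and Trp73 were at 1.78 CPM or less and 0.295 CPM or less in every library, and neither passed the filter. Trp63 had 0 counts in each WT PRO library and 35, 25 and 27 in WT DIFF. In p27KO it had 3 and 1 counts in PRO and 36 and 25 in DIFF.

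Mdm4, which inhibits p53 together with Mdm2, rose where Mdm2 fell. It was at 164, 139 and 177 CPM in WT PRO, 187, 227 and 255 in WT DIFF, 201 and 194 in p27KO PRO, and 341 and 314 in p27KO DIFF. The groups did not overlap within a stage or within a genotype. It rose in WT (log2 fold change 0.47, SE 0.13, edgeR adjusted p = 0.00777) and in p27KO (0.70, SE 0.15, adjusted p = 0.00327). At 2 + 1 DIV its difference between the genotypes was 0.57 and did not pass (SE 0.14, edgeR adjusted p = 0.0823). It passed with DESeq2 (0.58, DESeq2 adjusted p = 0.00549), with no filter (0.59, edgeR adjusted p = 0.0155) and when replicate number was blocked (0.66, edgeR adjusted p = 0.0369).

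None of the 23 regulators passed between the genotypes at either stage with edgeR (0 called, with 3 at an unadjusted p under 0.05 in neurospheres and 7 at 2 + 1 DIV, where 4.69% and 14.8% of all genes were). DESeq2 called 0 in neurospheres, where it called 0.311% of all genes. In p27KO DIFF it called 3 higher and 1 lower, where it called 4.12% of all genes higher and 0.888% lower. The lowest value at both stages was that of Cdkn2a, named after its values were seen. One of its products, Arf, inhibits Mdm2, but counts per gene do not show which of its transcripts was read. Cdkn2a is given here as a whole gene. It was at 81.8, 53.5 and 53.4 CPM in WT PRO, 77.7, 34.2 and 42.1 in WT DIFF, 34.9 and 23.9 in p27KO PRO, and 19.3 and 24 in p27KO DIFF. The p27KO libraries lay below the WT libraries of their stage (-1.07, SE 0.35, edgeR adjusted p = 0.913 in neurospheres, and -1.23, SE 0.36, adjusted p = 0.153 at 2 + 1 DIV). WT DIFF replicate 1 had the highest Cdkn2a of its group.

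**Figure D5:**
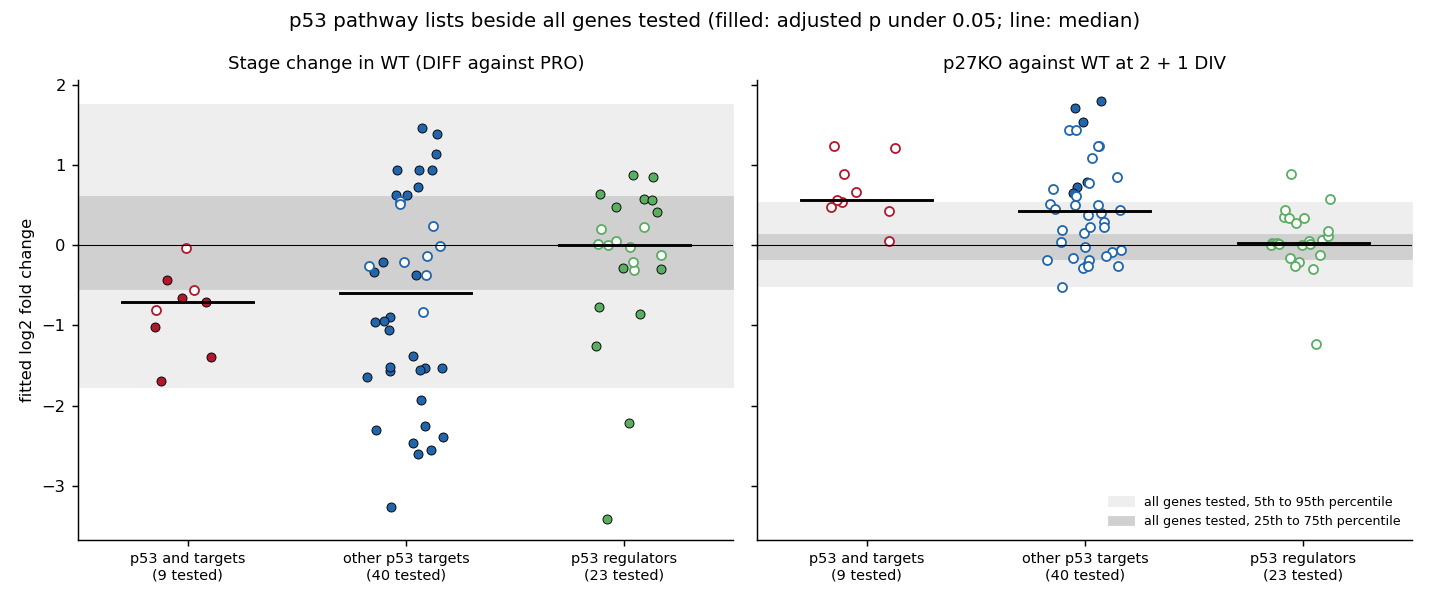
Fitted log2 fold change (y axis) of each gene of the 3 lists (x axis; filled points have an adjusted p under 0.05, lines are medians) for the stage change in WT (left) and for p27KO against WT at 2 + 1 DIV (right), over bands that hold the 5th to 95th and 25th to 75th percentiles of all genes tested. The medians are -0.71, -0.60 and -0.0013 on the left and 0.56, 0.42 and 0.03 on the right.

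Across the 10 libraries the members fell into patterns of their own. As a description over libraries that share 4 groups, the Pearson correlation of log2(CPM + 1) was 0.965 between Phlda3 and Zmat3, 0.964 between Mdm2 and Zmat3, 0.959 between Mdm2 and Phlda3, and 0.950 between Mdm2 and Ccng1. With Trp53 it was highest for Bax (0.889) and Gdf15 (0.860), which fell at DIFF in both genotypes, and it was 0.329 for Ccng1 and -0.218 for Trp53inp1. Among 9748 genes tested with a mean of at least 10 CPM, those most like Trp53 included Ywhag (0.993) and Ppan (0.993). Those most like Mdm2 were Map3k20 (0.989), Eda2r (0.983) and Ephx1 (0.978), and those most like Ccng1 were Eda2r (0.961), Pmaip1 (0.956) and Ephx1 (0.951). Gdf15 was most like Ube2ql1 (0.971), Arhgap26 (0.970) and Klf3 (0.969). For Trp53 and Gdf15 the PRO and DIFF libraries do not overlap, so that these correlations run over separate clusters of libraries.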

How the data were processed

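RNA of cultured cells was amplified to cDNA and sequenced as 10 libraries. Reads had been aligned by the authors with STAR (Ensembl mouse transcriptome) and summed per gene by RSEM, and they deposited the resulting estimated counts unnormalized, as whole numbers. Whether strand was used is not given in the sources used here. Of 48795 identifiers, 48349 were matched to a GENCODE symbol (GRCm38).

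Counts were fitted with edgeR 4.0.16 (limma 3.58.1, R 4.3.3): genes under 1 CPM in 4 or more libraries were discarded, as in the study's methods, libraries were scaled by TMM, and all 10 were fitted as 4 groups by the robust quasi-likelihood test, two-sided, with Benjamini-Hochberg adjustment over 12859 genes and a threshold of 0.05. CPM and CPM per kb (union of exons) use library totals without TMM factors, and SDs are over libraries. The SEs of edgeR values were derived from the test, as the absolute log2 fold change divided by the square root of its F statistic. At these totals (19190068 to 25291674) counting error was relatively largest among the members for Gdf15 (1 to 167 counts per library), followed by Bbc3 (106 to 261). Some list genes had few counts as well, such as Pmaip1 (62 in WT DIFF replicate 1). The steps were tested on simulated counts.

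The members and lists were chosen with earlier results of these data known. Named list genes are the 3 largest rises and 3 largest falls called in WT with a mean of at least 10 CPM, every list gene called in the interaction or between genotypes, Cdkn1a and Mdm4; Cdkn1b and Mki67 were checks. Alternatives were DESeq2 1.42.0, its size factors in edgeR, other filters, a minimum fold, only the groups compared, the replicate number as a block and each library left out. Same-numbered WT libraries deviated together (correlations of 0.248, 0.301 and 0.395 across genes, against -0.221 to -0.0874 for other numbers). Deviations were taken from group means, so positive values for the same number push those for other numbers to be negative. The numbers were read as pairs only in the WT ratios and in the fits with a block, and the main fit used no pairing. That block gives same-numbered libraries of both genotypes a shared term. The labels do not say what a number marks. No library was a copy of another (replicates differed by 14.8 to 64.5 times the sampling noise). Python 3.11.15, pandas 2.3.3 and matplotlib 3.10.9 made tables and plots. The ATAC-seq data were not analysed here. A single result of the planned list of genes most like Trp53 is not reported here.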

Additional observations from a re-analysis of the deposited data

Results flagged for a closer look

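The stage change differed between the genotypes by the test of the difference itself for Ckap2, a p53 target of the mitotic spindle, and for Mki67. For Ckap2 the change in p27KO minus that in WT was 1.30 on the log2 scale (SE 0.18, edgeR adjusted p = 0.023), from 163 ± 18.1 to 34.5 ± 3.66 CPM in WT (SD, n = 3) and from 212 ± 19.3 to 112 ± 12.7 CPM in p27KO (SD, n = 2). With edgeR 1 of the 40 other p53 targets tested passed, where 0.389% of all genes did, and with DESeq2 2 passed (Ckap2, and Zfp365 at 0.72, DESeq2 adjusted p = 0.0332), where 1.25% did. The edgeR call of Ckap2 was lost in 7 of the 10 fits that left out a library (edgeR adjusted p up to 0.166). For Mki67, the marker of cycling cells, the difference was 1.65 (SE 0.27, edgeR adjusted p = 0.0392), and 8 of those 10 fits lost the call (adjusted p up to 0.228). Groups of 2 or 3 libraries were too small for a test of single libraries that stand apart.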

How the results depend on the processing

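The count of members that fell in WT was 6 with edgeR and 3 with a minimum log2 fold change of 1, and ranged from 5 to 7 when a library was left out. In p27KO the count of members that rose was 0, and 1 (Trp53inp1) with only the groups compared, and ranged from 0 to 1 with a library left out (1 without WT DIFF replicate 1); the count that fell was 3, and 5 when genes reaching 1 CPM in 4 or more libraries were kept. The count higher in p27KO DIFF was 0, 4 with DESeq2, and 0 to 2 with a library left out (2 without WT DIFF replicate 1, 1 without WT DIFF replicate 2). With the replicate number as a block the counts of members called were unchanged at 6, 3 and 0 for WT, p27KO and each genotype comparison, although the block ended the call of Phlda3 in p27KO (-1.08, edgeR adjusted p = 0.0984) and that of Pmaip1, and gave calls to Zmat3 in p27KO and to Mdm4; it changed no other call. The p27KO libraries of the same number did not deviate together (-0.138), and a crossed pairing, added after seeing the data, also gave counts of 6, 3 and 0.

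Reversed signs were all of values that did not pass. With each library left out in turn, Trp53inp1 in WT ranged from -0.19 to 0.18 (0.18 without WT DIFF replicate 1, 0.06 without WT PRO replicate 2). Bbc3 in p27KO was at 0.02 with size factors, DESeq2, the block and the crossed block, at 0.03 with only the groups compared, and at 0.01 to 0.47 in 4 fits without a library. The interaction ranged from -0.03 to 0.29 for Trp53 and from -0.10 to 0.57 for Sesn2, the low ends (and -0.01 for Trp53) without a p27KO library. In neurospheres the genotype difference ranged from -0.24 to 0.08 for Trp53 and from -0.03 to 0.64 for Sesn2, and was at -0.03 (block), -0.05 (crossed block), -0.08 and -0.37 for Bbc3. At 2 + 1 DIV Trp53 was at -0.04 without WT DIFF replicate 2 and at -0.08 without p27KO DIFF replicate 2. The causes were not tested. With 2 p27KO libraries per stage, SEs of 0.37 for Ccng1 and Phlda3 limit what can be called.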
